A study of Mus musculus with 4 samples.

Results

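The genes described here are 9 transcription regulators outside the Hox clusters that pattern body regions in the embryo and are used to tell fat depots apart. They are Tbx1, Tbx5, Tbx15, Shox2, En1, Eya1, Wt1, Irx3 and Hand2, found by symbol among the 32285 genes of the count matrices, where each symbol occurred once. The study profiled nuclei from the buoyant, fat-laden fraction of digested tissue to describe adipocytes inside the mouse thymus beside those of epigonadal white fat. All samples were WT and naïve, and the thymic pools came from C57/BL6 mice on standard chow. Single-nucleus RNA was read in 1 library from 6 pooled thymi of 4-month males and in 1 library from epigonadal white adipose tissue of 4-month males, whose strain, diet and number of animals the sources used here do not give. Open chromatin (ATAC) was read in 1 multiome library from 16 pooled thymi of 6-month females. Since each group is 1 library, no test between groups was possible, and the 95% intervals below cover counting error only.

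T-box proteins such as Tbx1, Tbx5 and Tbx15 bind DNA through a shared domain and set up pharyngeal, limb, heart and trunk territories. Shox2, En1 and Irx3 are homeodomain factors of limb, body wall and neural patterning, Hand2 is a basic helix-loop-helix factor of heart and limb, and Wt1 is a zinc-finger factor of kidney, gonad and mesothelium, the cell sheet that covers visceral organs. Eya1 is a coactivator that works with sine oculis homeobox proteins and is needed for the pharyngeal pouch from which the thymus forms. Adult fat keeps part of this embryonic map, with Tbx15, Shox2 and En1 known for levels that differ between depots and Wt1 known from visceral fat.

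The thymic library held 22600 barcodes, of which the authors labelled 365 (median 1479 UMIs, against 308 in unlabelled barcodes). The epigonadal library held 5043, of which 1564 were labelled (median 966 UMIs, against 794). The authors' labels split into Ad I (a and b, also joined below) and Ad II (a, b and c). The adipocyte marker list reached 11600 UMIs per 1000000 (CPM) in thymic Ad I, but Ad IIa carried endothelial markers as well. The 10 endothelial genes, all detected, summed to 12021 CPM in the thymic and 8826 CPM in the epigonadal library, beside adipocyte sums of 11959 and 28443 CPM. The same label in the 2 libraries therefore need not hold the same cells. The 2 libraries shared 147 barcode sequences, and none was labelled in both. In whole-label sums, fewer expressing cells and less RNA per cell cannot be told apart.

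The sequences just upstream of 3 gene starts are shown to place the bins of cut sites described below, most of which lie outside these runs. Irx3 had the most open window of the 9 in thyAD I and II, and Shox2 and En1 are homeodomain genes with little or no RNA in labelled thymic nuclei. Each run is the 250 bases before the RefSeq start on GRCm38.p6, with every CpG in capitals. RefSeq promoters were matched for 5 of the 9 genes: Tbx1, Shox2, En1, Irx3 and Hand2.
Irx3 (chr8:91801655-91801904, minus strand): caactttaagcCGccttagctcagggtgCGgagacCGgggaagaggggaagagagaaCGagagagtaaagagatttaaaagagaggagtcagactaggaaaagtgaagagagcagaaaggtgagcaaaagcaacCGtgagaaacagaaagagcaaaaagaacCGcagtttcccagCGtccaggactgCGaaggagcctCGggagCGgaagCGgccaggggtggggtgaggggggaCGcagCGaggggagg
Shox2 (chr3:66981772-66982021, minus strand): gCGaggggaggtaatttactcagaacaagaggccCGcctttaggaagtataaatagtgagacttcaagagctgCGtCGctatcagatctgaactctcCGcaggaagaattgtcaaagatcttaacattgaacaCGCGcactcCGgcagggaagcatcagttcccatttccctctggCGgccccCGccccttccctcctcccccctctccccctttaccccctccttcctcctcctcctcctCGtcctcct
En1 (chr1:120602237-120602486, plus strand): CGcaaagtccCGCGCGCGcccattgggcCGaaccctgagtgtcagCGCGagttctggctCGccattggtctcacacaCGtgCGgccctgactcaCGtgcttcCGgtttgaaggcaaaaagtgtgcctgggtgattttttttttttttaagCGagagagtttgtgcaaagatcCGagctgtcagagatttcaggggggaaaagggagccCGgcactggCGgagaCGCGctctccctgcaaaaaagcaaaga
The shown runs hold 13 CpGs for Irx3, 11 for Shox2 and 19 for En1. In the full 300-base promoter windows, the CpG counts stood at percentiles 63.7, 58.6 and 78.5 among 32851 promoters. The letters CCAAT, searched on both strands, occurred 2 times in the En1 window and in neither of the others, and 37.4% of all promoters hold them. The letters TATAAA occurred once in the Shox2 window and are held by 13.6% of promoters.

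Tbx15 was the member that differed most between the depots. In epigonadal nuclei it read 111 CPM in Ad Ia (16 UMIs, interval 63.7 to 181) and 99.8 CPM in Ad Ib (12 UMIs, 51.6 to 174). It read 13.6 CPM in Ad IIc (7 UMIs) and 0 UMIs in Ad IIa and Ad IIb. The 28 UMIs of Ad I came from 26 of 258 nuclei, so no single nucleus carried the signal. Ad IIa had 0 UMIs among 1237126. With that 0 held at 3 UMIs, Tbx15 was 43.8-fold lower there than the Ad I point value, and the interval of the log2 ratio, which also counts the error of Ad I, reached up to -5.06. Thymic labelled nuclei held 0 Tbx15 UMIs in every label, a limit of 5.61 CPM over all 365, against 16.2 CPM in epigonadal labelled nuclei. With the count of 0 held at 3 UMIs, thymic Tbx15 was 2.89-fold lower than the epigonadal point value over all labels, and the interval of the log2 ratio reached up to -1.16. In Ad I alone the thymic total was only 52241 UMIs, so the same value was 1.85-fold. Fibroblast and progenitor markers were lower in the thymus as well, at 48.6 CPM (5 of 10 genes detected, Pi16 and Dpp4 among those at 0) against 340 CPM (10 of 10) over labelled nuclei and 172 against 682 CPM in Ad I. The Tbx15-positive epigonadal Ad I nuclei carried fibroblast and progenitor markers at 802 CPM and adipocyte markers at 14922 CPM, against 662 and 21333 CPM in the Ad I nuclei without a Tbx15 UMI. Mural markers read 481 CPM with and 238 CPM without one (18 and 54 UMIs). The nuclei with a Tbx15 UMI were deeper, at a median of 1303 UMIs against 715 in those without. The part of these markers and of depth in the result was not tested.

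**Figure D1:**
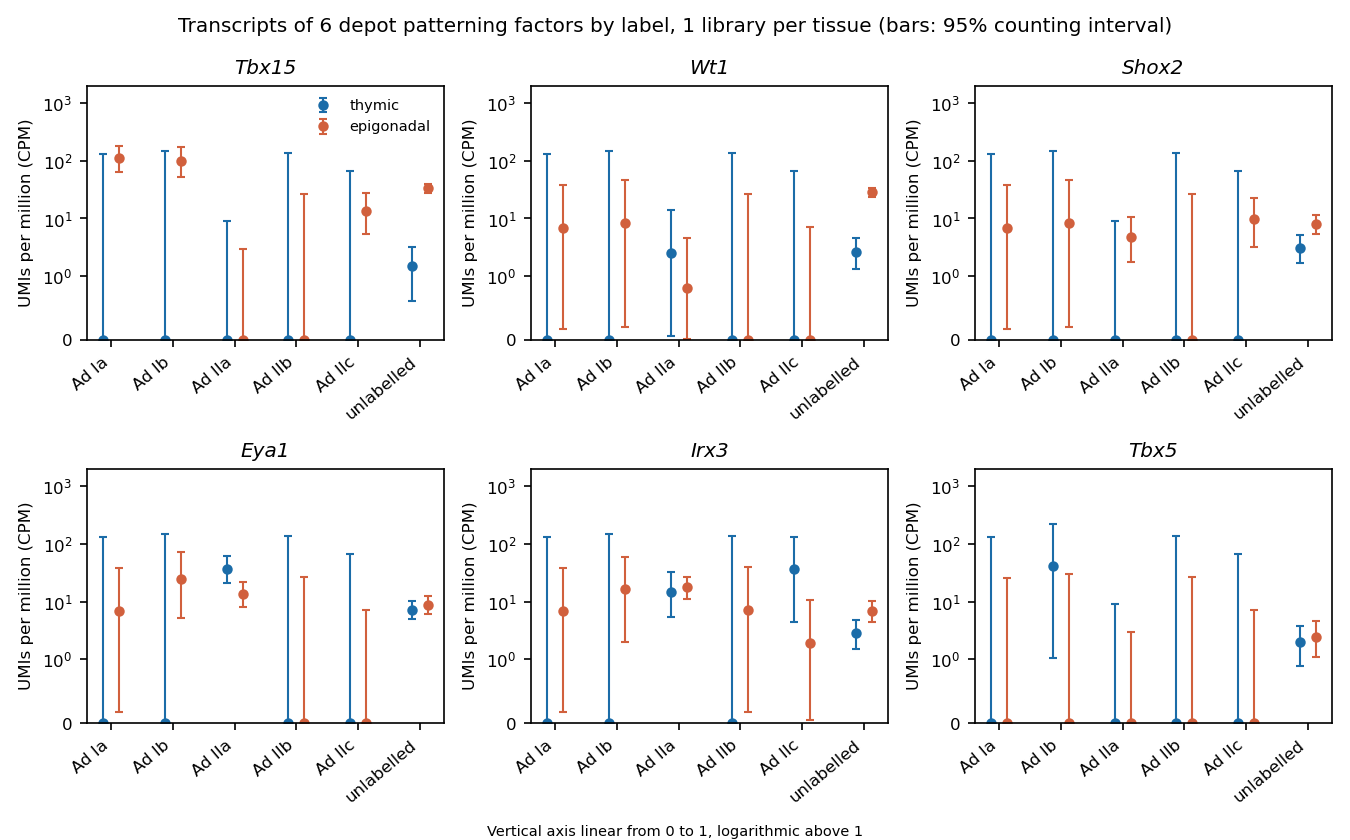
Levels in CPM of 6 of the 9 genes (vertical axis, linear to 1 and logarithmic above) by label and in unlabelled barcodes, in the thymic (blue) and epigonadal (orange) library; points are 1 library each and bars are 95% counting intervals. Epigonadal Tbx15 sits at 111 and 99.8 CPM in Ad Ia and Ad Ib and at 0 in Ad IIa, while thymic Tbx15 is at 0 in every label with intervals whose width follows their depth.

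The unlabelled barcodes hold all other material of each library, and there Tbx15 and Wt1 were far lower in the thymus. The pools are unlike: 19243 of 22235 thymic barcodes had under 3 genes of any marker list (2701771 of 4603069 UMIs), against 396 of 3479 epigonadal ones. Tbx15 read 1.52 CPM in thymic (7 UMIs) and 33.6 CPM in epigonadal barcodes (127 UMIs), a log2 ratio of -4.37 (-5.81 to -3.38). Wt1 read 2.61 CPM (12 UMIs) against 28.3 CPM (107 UMIs), a log2 ratio of -3.39 (-4.44 to -2.58). Fibroblast and progenitor markers, all 10 detected on both sides, also summed lower in the thymic unlabelled barcodes, at 463 against 1520 CPM. Mesothelial markers did so too, at 23.9 against 49.2 CPM. Barcodes with at least 2 mesothelial genes held 2 of the 12 thymic and 75 of the 107 epigonadal Wt1 UMIs. The part of either list in these ratios was not tested. Barcodes were also sorted by markers, and those with at least 3 genes of the fibroblast list, more than of any other list, were compared between libraries (60 thymic and 152 epigonadal barcodes, of which 15 and 27 lay at exactly 3 genes). Within this class Tbx15 read 11.8 CPM in the thymus from 1 UMI and 252 CPM in epigonadal fat from 56 UMIs, a log2 ratio of -3.84 (-9.74 to -1.87). The adipocyte class held a like number of epigonadal Tbx15 UMIs (57, 23.0 CPM) against 1 in the thymus (3.22 CPM), with a log2 ratio of -2.27 (-8.17 to -0.30). The adipocyte classes are unlike in depth and in the share of barcodes at exactly 3 genes, as given for Shox2 below. In the fibroblast class Wt1 read 82.8 CPM from 7 UMIs and 283 CPM from 63 UMIs, a log2 ratio of -1.69 (-3.15 to -0.65). All 3 intervals exclude 0, but they cover counting error between 1 library a side. For Wt1 the shares of barcodes with a UMI were near each other, at 11.7% (7 of 60) and 13.2% (20 of 152), and the epigonadal class includes barcodes with mesothelial genes. Among all unlabelled barcodes with at least 3 fibroblast and 0 mesothelial genes, Wt1 was found in 8 of 60 thymic (13.3%, 5.94 to 24.6%) and 12 of 219 epigonadal barcodes (5.48%, 2.86 to 9.38%), so the thymic share was not the lower one there. Tbx15 was found in 1 and 47 of the same barcodes (1.67% and 21.5%). In the epigonadal fibroblast class 23.7% of barcodes had a Tbx15 UMI (median 1119 UMIs per barcode), against 0.637% (1 of 157) in the macrophage class at a median of 1027 UMIs.

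Wt1 and Tbx15 were seldom seen in the same epigonadal barcode, and both were sparse. Of the 37 unlabelled barcodes with a Wt1 UMI, 22 had at least 2 mesothelial genes and held 75 of the 107 Wt1 UMIs, with Gpm6a found in 15, Upk3b in 12 and, of the fibroblast and progenitor list, Dpp4 in 14 and Pdgfra and Pi16 in 1 each. Another 14 had no mesothelial gene and held 26 UMIs, and there Pdgfra and Pi16 were each found in 10 and Dpp4 in 2. Of all 37, 33 had at least 3 genes of that list, so it does not separate the 2 kinds. Of the 97 barcodes with a Tbx15 UMI, none had a mesothelial gene. Such genes were rare, since 29 of all 3479 unlabelled barcodes had at least 2, so few overlaps could be seen. Among the 247 barcodes with at least 3 fibroblast genes, 33 had Wt1, 47 had Tbx15 and 0 had both, which allows a share of up to 1.21%. In the 219 of them without a mesothelial gene, 12 had Wt1, 47 had Tbx15 and 0 had both (up to 1.37%). Whether 0 is fewer than independent detection would give was not tested. The mesothelial class proper held only 2 epigonadal barcodes, with 4 Wt1 UMIs. Wt1 was found in 22 of the 29 barcodes with at least 2 mesothelial genes (75.9%, 56.5 to 89.7%). Tbx15 was found in 0 of the 29 (up to 10.3%), against 97 of all 3479 unlabelled barcodes, and whether that is fewer was not tested. Both genes are sparse, so a barcode without a UMI is not shown to lack the transcript. In the thymus 10 of 65 barcodes with at least 3 fibroblast genes had Wt1 and 1 had Tbx15. Over all barcodes of the epigonadal library, 1 carried both genes, so that 0.781% of Tbx15 barcodes had Wt1, against 0.793% of all barcodes. Over the whole library the overlap was thus about equal to the Wt1 share alone, but it rests on that 1 barcode. The antisense gene Wt1os starts beside Wt1, and a UMI of it was found in 14 of 40 epigonadal and 4 of 13 thymic Wt1 barcodes. The sources do not state whether counting used strand, so the split between the 2 genes is uncertain.

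**Figure D2:**
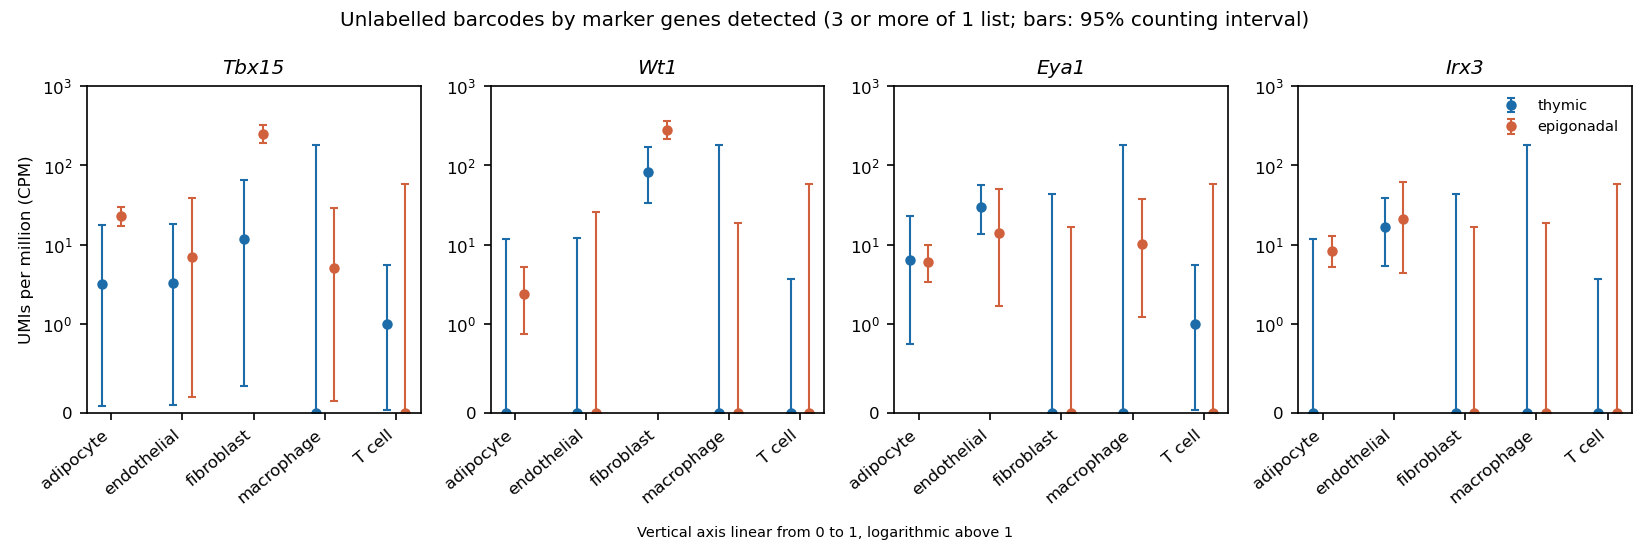
Levels in CPM of Tbx15, Wt1, Eya1 and Irx3 (vertical axis, linear to 1 and logarithmic above) in unlabelled barcodes grouped by the marker list with at least 3 detected genes, thymic in blue and epigonadal in orange, with 95% counting intervals. Tbx15 and Wt1 reach 252 and 283 CPM in the epigonadal fibroblast class, and Eya1 and Irx3 reach 29.9 and 16.6 CPM in the thymic endothelial class.

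Eya1 and Irx3 gave most of their labelled UMIs in Ad IIa, which is also the label with the most UMIs in each library. Thymic Eya1 read 37.4 CPM in Ad IIa (15 UMIs in 12 of 231 nuclei, 20.9 to 61.6) and 0 UMIs in the other 4 labels, whose totals are small. Epigonadal Eya1 read 13.7 CPM in Ad IIa (17 UMIs) and 15.2 CPM in Ad I (4 UMIs, of which 3 in Ad Ib at 24.9 CPM). The thymic over epigonadal log2 ratio was 1.45 in Ad IIa (0.34 to 2.53) and 1.54 over all labelled nuclei (0.47 to 2.55). Endothelial markers were higher in the thymus too, at 12021 against 8826 CPM in Ad IIa and 10909 against 6058 CPM over labelled nuclei, and their part in the Eya1 ratio was not tested. Between the endothelial classes of unlabelled barcodes the Eya1 log2 ratio was 0.84, with an interval that includes 0 (-1.19 to 4.33). Irx3 read 14.9 CPM in thymic Ad IIa (6 UMIs) and 17.8 CPM in epigonadal Ad IIa (22 UMIs), which differ by less than counting error (log2 ratio -0.17, -1.84 to 1.10). Per UMI, Irx3 was not highest in Ad IIa of the thymus, where Ad IIc read 36.9 CPM from 2 UMIs (4.46 to 133). That Ad IIc label also carried endothelial markers, at 10836 CPM with all 10 genes detected. In epigonadal fat Ad Ib read 16.6 CPM from 2 UMIs, just under the 17.8 CPM of Ad IIa. Within the thymic library both were higher in labelled nuclei than in unlabelled barcodes, Eya1 by a log2 ratio of 1.99 (0.98 to 2.89) and Irx3 by 2.44 (0.93 to 3.78). Endothelial markers moved the same way, at 10909 CPM in labelled nuclei and 1266 CPM in unlabelled barcodes. Among thymic unlabelled barcodes the endothelial class held 9 Eya1 UMIs (29.9 CPM, 13.7 to 56.8) and 5 Irx3 UMIs (16.6 CPM, 5.40 to 38.8), the most of any class with at least 3 genes of 1 list. Eya1 read higher in the B cell class (53.7 CPM) and the erythroid class (45.7 CPM), but from 3 and 2 UMIs. A UMI of Eya1 was found in 2.60% of these 308 barcodes (median 973 UMIs) and in 0.0792% of the 1263 T-cell class barcodes (median 819 UMIs). Thymic unlabelled barcodes with Eya1 carried endothelial markers at 5966 CPM, against 1245 CPM in those without. The 2 sets are unlike in depth, at medians of 780 and 308 UMIs. Inside thymic Ad IIa the endothelial sums were 10310 CPM with and 12151 CPM without an Eya1 UMI, at median depths of 2705 and 1680 UMIs. What share of the Ad IIa signal comes from endothelial RNA was not tested.

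The remaining 5 genes were near the detection limit in labelled nuclei. Shox2, a limb and sinus node factor, had 0 thymic UMIs and 13 epigonadal ones spread over 4 labels, at 6.02 CPM. In unlabelled barcodes it read 3.04 CPM in thymus (14 UMIs) and 7.94 CPM in epigonadal fat (30 UMIs), a log2 ratio of -1.36 (-2.41 to -0.42). Tbx5, a forelimb and heart factor, had 1 thymic UMI in labelled nuclei, and 9 UMIs in the unlabelled barcodes of each library. En1, a dorsal trunk and limb factor, had 0 thymic and 2 epigonadal UMIs in labelled nuclei and 1 and 5 in unlabelled barcodes. Tbx1, needed for the pharyngeal arches and used as a marker of beige fat, had 1 UMI in all, in an epigonadal barcode. Hand2 also had 1 UMI in all, in the 1 thymic barcode of the mesothelial class (3 or more of its genes). For Tbx1 and Hand2 the limit over labelled nuclei was 5.61 CPM in the thymus and 1.39 CPM in epigonadal fat, so lower levels were not detectable at this depth.

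Counted by a rule of at least 10 UMIs over both sides and a 2-fold difference, the members were set beside all genes. Over all labelled nuclei, 4 of 9 members had enough UMIs. Eya1 was called higher in the thymus (8.12% of all genes tested were called higher), and Tbx15 and Shox2 lower (20.2% of all genes). The Shox2 call rests on the 0.5 UMI added to a count of 0: with 3 counts in place of the 0 the ratio is within 2-fold. In Ad I nuclei 1 member could be assessed, Tbx15, and it was called lower (17% of all genes). With the 0 held at 3 counts it is not 2-fold. In Ad IIa nuclei 2 were assessed, Eya1 being called higher (5.44%) and none lower (16.2%). In unlabelled barcodes 6 were assessed, of which Tbx15, Wt1, Shox2 and Irx3 were called lower (22.4% of all genes) and none higher (11.1%). Irx3 read 2.82 against 6.88 CPM there, and endothelial markers summed to 1266 against 2525 CPM, whose part in the Irx3 difference was not tested. Within the adipocyte class Shox2 was not lower in the thymus, at 9.67 against 8.08 CPM (3 and 20 UMIs, log2 ratio 0.45, -2.14 to 2.01). These classes are unlike, since 663 of 1011 thymic barcodes lay at exactly 3 adipocyte genes (median 410 UMIs), against 133 of 2437 epigonadal ones (median 754 UMIs). Labelled over unlabelled in the thymic library, Eya1 and Irx3 were called higher (16.6%) and Shox2, at 0 of 534972 labelled UMIs, lower (23.8%), the last resting on the same addition. In the epigonadal library Wt1 and Tbx15 were called lower in labelled nuclei (14.9%) and none higher (5.08%). For Tbx15 the labels differed in direction: Ad I read 106 against 33.6 CPM in unlabelled barcodes (log2 ratio 1.68, 1.01 to 2.26), while Ad IIa had 0 UMIs. Wt1 read 1.39 CPM in labelled nuclei and 28.3 CPM in unlabelled barcodes there, a log2 ratio of -4.13 (-6.65 to -2.76). Mesothelial markers (4.17 against 49.2 CPM) and fibroblast markers (340 against 1520 CPM) were lower in labelled nuclei too, and their part in the Wt1 and Tbx15 calls was not tested.

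**Figure D3:**
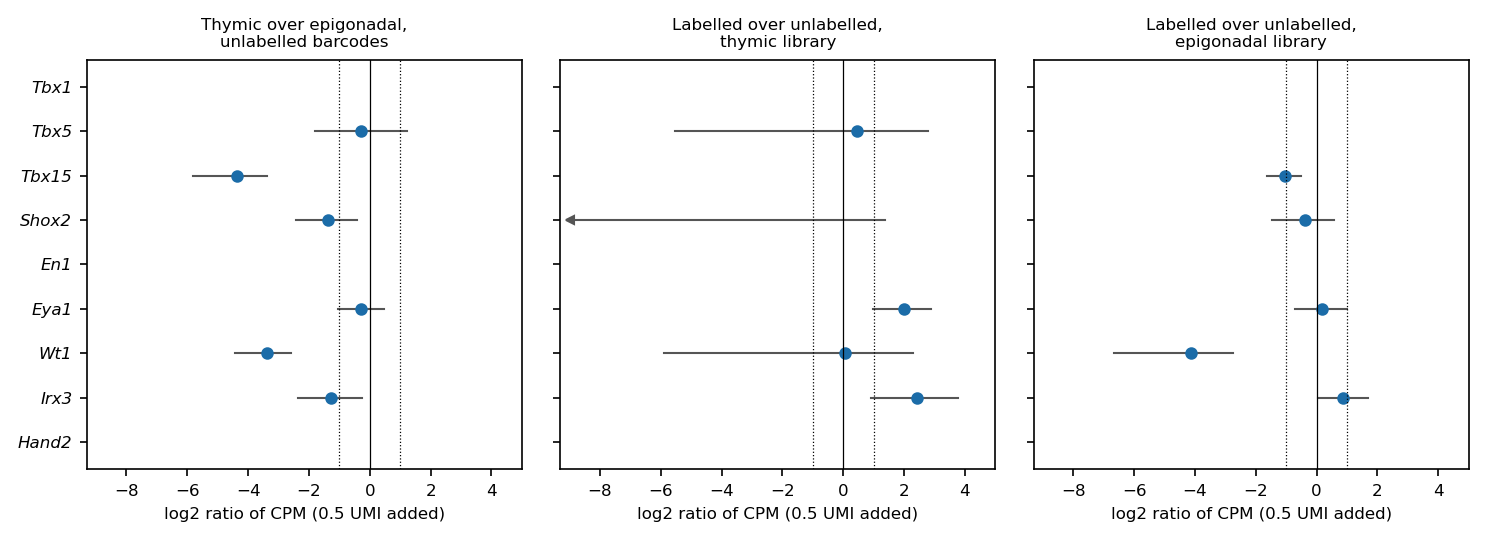
Log2 ratios (horizontal axis, 0.5 UMI added to each side) with 95% counting intervals for members with at least 10 UMIs over both sides, in 3 comparisons; dotted lines mark 2-fold and an arrow marks a side with 0 UMIs, drawn without a point. Tbx15 at -4.37 and Wt1 at -3.39 lie farthest from 0 between depots, and Eya1 at 1.99 and Irx3 at 2.44 are higher in labelled thymic nuclei.

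A wider list of 68 developmental factors related to these genes, of which 67 were matched, gave context and was chosen with earlier results of these data known. In unlabelled barcodes 37 of them had enough UMIs, 19 being lower in the thymus and 1 higher (22.4% and 11.1% of all genes), with a median log2 ratio of -1.11, against -1.31 over the 6 members and -0.12 over all genes. The fibroblast markers also read lower in the thymus there, at 463 against 1520 CPM, and their part in these counts was not tested. Emx2, a urogenital factor, was among the lowest, with 0 thymic and 13 epigonadal UMIs. The gene called higher was Lhx8, a LIM homeodomain factor, with 11 against 3 UMIs and an interval that includes 0 (log2 ratio 1.43, -0.33 to 4.07). Prdm16, a brown-fat regulator, read 38.5 against 20.6 CPM, under 2-fold. Over labelled nuclei, 3 of 24 were higher in the thymus and 8 lower (8.12% and 20.2% of all genes), with a median log2 ratio of -0.11 against 0.02 over all genes. The labels are mixed differently there, with 658 Ad IIc nuclei in the epigonadal and 34 in the thymic library, and within Ad IIa 0 of 12 were called in either direction. Within Ad I 3 of 11 were called higher and 3 lower (15.2% and 17% of all genes). Ebf2, a factor of brown and beige adipocytes, was among those higher, at 861 against 243 CPM (log2 ratio 1.83, 1.24 to 2.40). The 3 called lower in Ad I had 0 thymic UMIs and rest on the same addition. For 2 of them, Eya4 and Eya2, with 13 and 12 epigonadal UMIs, holding the 0 at 3 UMIs gave no bound. Over all labelled nuclei the limb factor Prrx1 had 0 thymic and 24 epigonadal UMIs, 1.98-fold lower with the 0 held at 3 UMIs. Dach1, a partner of the Eya proteins, read 2716 against 1152 CPM over the same nuclei. Within Ad IIa Dach1 read 3198 against 1769 CPM, under 2-fold. Tbx3, a T-box gene outside the 9, read 130 CPM in thymic and 184 CPM in epigonadal Ad IIa.

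Likeness of pattern was read as Pearson's r of log2(CPM + 1) over the 12 groups formed by the 5 labels and unlabelled barcodes of both libraries, among 11583 genes with at least 50 UMIs. The groups share their library and differ in depth, and many member values are 0, so r is a description only. Among the closest to Tbx15 were Arhgef4 (r 0.980) and Nipal2 (0.977). Closest to Eya1 were Ptgfrn, Gm16091 and Syn3 (0.981 to 0.952), to Irx3 Ric3, Hrct1 and Pawr (0.973 to 0.964), to Wt1 St18, Gfpt2 and Gm21188 (0.983 to 0.968), and to Shox2 Rrp9, Nutf2-ps1 and Serpina3c (0.995 to 0.993).

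Chromatin was counted as fragments over each gene body with 2 kb flanks, in 146 thyAD I, 140 thyAD II and 31 Immune nuclei, with medians of 10106, 15057 and 16036 fragments. Irx3 was the most open member window in thyAD I and II. It read 41.9 fragments per 1000000 (FPM) in thyAD I (32.6 to 53.0), 42.9 in thyAD II (34.7 to 52.5), 23.2 in Immune (12.3 to 39.6) and 4.42 in the 7821 unlabelled barcodes with at least 1000 fragments (3.97 to 4.90). Eya1 exceeded it in Immune nuclei (32.1 FPM) and in unlabelled barcodes (18.4 FPM). The Eya1 window spans 146 kb, however, against 7.14 kb for Irx3. Per kb of window Irx3 was above Eya1 there, at 3.24 against 0.219 FPM in Immune and 0.618 against 0.126 FPM in unlabelled barcodes. Among genes, Irx3 ranked per kb at percentile 96.9 and 97.4 in thyAD I and II. Against unlabelled barcodes the log2 ratio of thyAD I and II was 3.27 (2.99 to 3.54). Of the genes near Irx3, Irx5 read 38.3, 44.3 and 35.0 FPM in thyAD I, thyAD II and unlabelled barcodes. Fto read 241, 238 and 168 FPM in the same order. By the same rule 5 of 9 members were called higher (20.8% of all genes), namely Irx3, En1 at 2.24 (1.59 to 2.81), Wt1 at 1.58, Tbx5 at 1.28 and Hand2 at 1.15. None was called lower (16.1%), and Shox2, Eya1, Tbx15 and Tbx1 lay between 0.56 and -0.24. Of the wider list of developmental factors, 31 of 67 were called higher too (46.3%) and 2 lower. Its median log2 ratio was 0.87, against 1.15 over the members, and Nr2f2 (3.55) and Twist1 (3.35) exceeded Irx3. Immune nuclei were also above unlabelled barcodes, with 4 of 9 members called higher, Irx3, En1, Wt1 and Hand2 (32.8% of all genes), and none lower (7.49%). En1 and Hand2 rest on 2 Immune fragments each, and 2 of the 9 members, Irx3 and Eya1, had an interval above 0 (8.94% of all genes). Irx3 had a log2 ratio of 2.44 there (1.47 to 3.18), so a higher Irx3 value than in unlabelled barcodes was also seen outside the adipocyte labels. The unlabelled barcodes were added as a comparison after the data were seen, and may include nuclei whose labels lie past the 317 usable rows of the deposited table. Irx3 stayed between 3.21 and 3.29 when thyAD I, thyAD II or deeper unlabelled barcodes were taken alone, while the count called higher fell to 2 of 9 with thyAD I alone, where Hand2 had 2 fragments. The share over all genes was not counted for thyAD I alone, so that count cannot be set beside other genes.

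**Figure D4:**
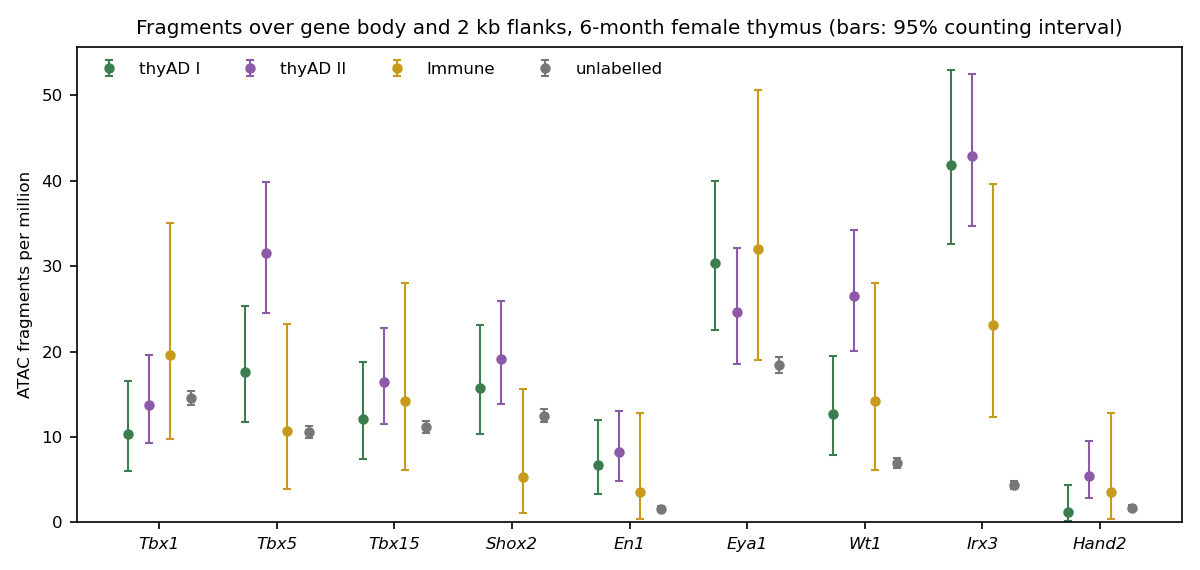
ATAC fragments in FPM (vertical axis) over the gene body and 2 kb flanks of each gene in thyAD I, thyAD II and Immune nuclei and in unlabelled barcodes, with 95% counting intervals. Irx3 stands at 41.9 and 42.9 in thyAD I and II against 4.42 in unlabelled barcodes, and Wt1 at 12.8 and 26.5 in thyAD I and II.

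At Irx3 the 500 bp bin that ends at the start, and holds the Irx3 sequence printed above with 250 bases beyond it, held 15.5 per 1000000 cut sites (2 cut sites per fragment) in thyAD I, 19.2 in thyAD II, 8.91 in Immune and 1.31 in unlabelled barcodes, a log2 ratio of 3.75 (3.43 to 4.07) for thyAD I and II over unlabelled. The bin with the most thyAD cut sites on a fixed grid, chr8:91802011-91802510 with 100, lies upstream of the printed run. The 300-base promoter window itself drew 6 fragments in thyAD I and 8 in thyAD II, at percentiles 65.6 and 65.1 among promoters. The bin just past the start read 6.98, 4.57, 0.891 and 0.670 in the same order (thyAD I, thyAD II, Immune, unlabelled). Another bin, centred 3.75 kb downstream of the start and so past the end of the 3144-base gene, read 6.68, 9.13, 7.13 and 0.701 (log2 ratio 3.53, 3.06 to 3.99). At Shox2 the bin just past the start read 4.86 and 5.02 in thyAD I and II against 1.61 in unlabelled barcodes (log2 ratio 1.64, 1.09 to 2.12), although no Shox2 UMI was found in thymic labelled nuclei of the male library. The bin 0.75 kb upstream read the other way, at 1.21 and 2.06 in thyAD I and II (4 and 9 cut sites) against 2.78 in unlabelled barcodes. A bin 3.75 kb upstream of Shox2 did not differ beyond counting error, at 5.77, 5.48 and 5.09 in thyAD I, thyAD II and unlabelled barcodes (log2 ratio 0.15, -0.34 to 0.58). En1 cut sites were few and lay on both sides of the start. A bin 0.75 kb past the start read 2.97 in thyAD II (13 cut sites), 2.67 in Immune (3), 0 in thyAD I and 0.221 in unlabelled barcodes, and the largest thyAD I bin was 2.25 kb past the start (1.52, 5 cut sites). Its printed upstream run and the 50 bases after it drew 2 fragments in all labelled nuclei, both in thyAD I.

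**Figure D5:**
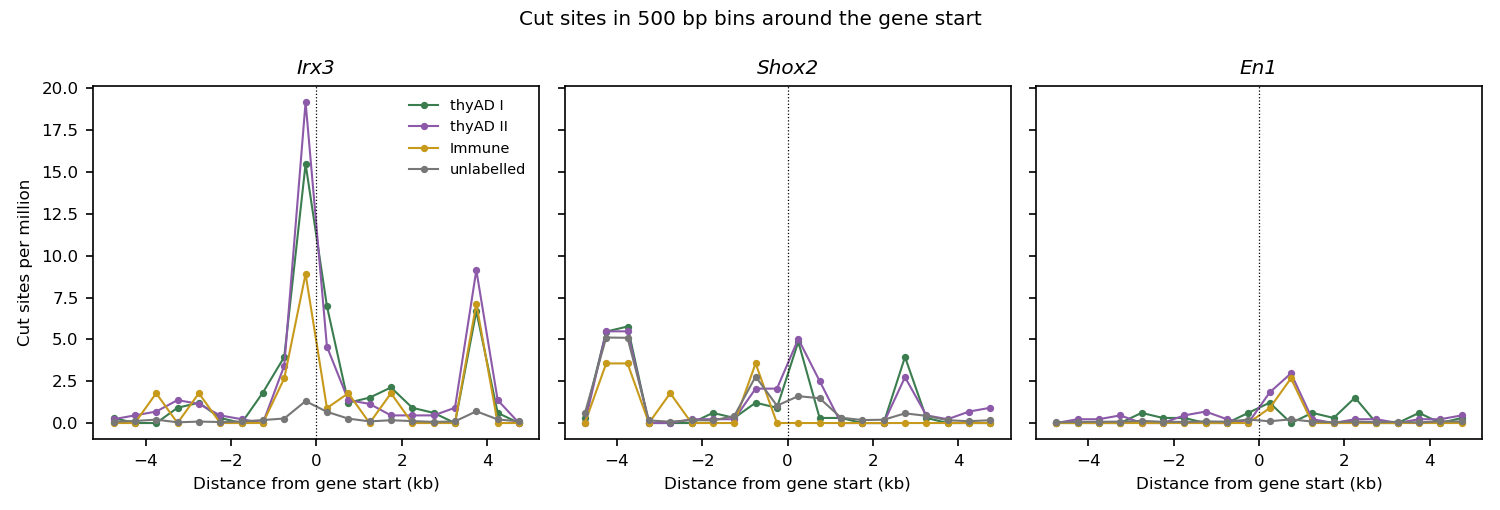
Cut sites per 1000000 in 500 bp bins (vertical axis) by distance from the gene start in kb for Irx3, Shox2 and En1, with 1 line per label and a dotted line at the start. Irx3 peaks at 15.5 and 19.2 in the bin before the start in thyAD I and II, while Shox2 3.75 kb upstream reaches between 5.09 and 5.77 in both and in unlabelled barcodes.

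Between the 2 adipocyte labels the Wt1 window read 12.8 FPM in thyAD I (21 fragments) and 26.5 FPM in thyAD II (58 fragments), a log2 ratio of 1.03 (0.31 to 1.85). Hand2 read 1.21 FPM from 2 fragments and 5.48 FPM from 12, a log2 ratio of 1.91 (0.01 to 5.38). These 2 of 9 members were called higher in thyAD II (4.46% of all genes) and none lower (2.99%). Their flanks reach into the neighbours Wt1os and Hand2os1, so the fragments cannot be given to Wt1 and Hand2 alone. The Wt1os window read 15.8 and 28.3 FPM in thyAD I and II, and the Hand2os1 window 4.25 and 6.39 FPM. Tbx5, at 17.6 and 31.5 FPM, had an interval above 0 (0.19 to 1.52) but fell short of 2-fold. Irx3 did not differ beyond counting error (0.03, -0.43 to 0.50). By joint cluster, Wt1 read 25.0 and 28.8 FPM in thyAD II clusters 0 and 4 and 9.78 and 19.1 in thyAD I clusters 1 and 3, and the interval of cluster 3 (9.18 to 35.2) overlapped those of the other 3. Against thyAD I, Immune nuclei had 1 of 8 members called lower (9.48% of all genes), Shox2 with 3 against 26 fragments and an interval that includes 0 (-3.93 to 0.14), and none higher (9.5%).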

How the data were processed

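RNA was analysed in 1 thymic and 1 epigonadal library and chromatin in 1 thymic multiome library; the multiome RNA was not analysed here. The deposited matrices hold raw UMI counts which the file headers credit to cellranger 7.2.0. The deposited fragments carry read counts per fragment, made with cellranger-arc 2.0.2 on GRCm38 per the file headers, and the submitters' processing notes also name Cell Ranger ARC 2.0.2 and Seurat 5.1.0. The authors deposited, per nucleus, labels, UMI counts, fragment counts and the percent of mitochondrial UMIs. The doublet class was singlet for every labelled nucleus, and no caller was run on unlabelled barcodes. The copy of the 6-month table stopped early, so 317 complete rows were used. Intron and strand handling and the annotation are not stated. The tabulated UMI total equalled the matrix total for 101 of 365 thymic and 789 of 1564 epigonadal labelled nuclei; the matrix counts were used.

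UMIs were summed per label and divided by nuclear-encoded UMIs (CPM). Log2 ratios added 0.5 UMI to each side. A member was assessed with at least 10 UMIs (or fragments) over both sides and called at 2-fold. Intervals are exact Poisson for sums, an exact binomial split for ratios and Clopper-Pearson for shares, at 95%. A count of 0 was given a limit of 3 counts. Fragments were counted once per window they touch, and cut sites are fragment ends. A barcode class needs at least 3 detected genes of 1 marker list. The interval and call code was tested on simulated counts. Companion genes named in the text are among the 2 highest and 2 lowest of a comparison, except Tbx3 and Irx5. These were planned as neighbours of members, but their printed values were picked after they were seen. The members and lists were chosen with earlier results of these data known. Python 3.11.15, numpy 2.4.6, scipy 1.17.1, pandas 2.3.3 and edgeR 4.0.16 (TMM scaling only, as an alternative) were used. Values of 1 companion gene are not reported here.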

Additional observations from a re-analysis of the deposited data

How the results depend on the processing

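No paired analysis was possible because each group is 1 library. Of 338 single-gene values under the alternatives, 327 stayed within the counting interval of the main value and 8 moved outside it. The other 3 reversed the direction of a called value. Values not called could change sign and still count among the 327. Alternatives that changed only the minimum or the rule of calling repeat the main ratio, so their values could not move. Values that fell under the minimum were left out, so 327 of 338 is no measure of stability. Of 154 counts of called members, 39 moved by over 1.5 times. No share over all genes was counted under the alternatives, so those counts and the ones below cannot be set beside other genes. Alternatives on chromatin against unlabelled barcodes, zero limits and intervals were chosen after seeing the data. Few UMIs limit every count. TMM scaling shifted all log2 ratios by -0.15 over labelled and -0.34 over Ad I nuclei.

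With 5 UMIs added, members called lower in the thymus fell to 0 over labelled and 0 over Ad I nuclei, and Shox2 reversed to 0.16 over labelled nuclei. In the thymic library labelled over unlabelled then gave 5 higher and 0 lower, with Shox2 reversed to 1.18, and the epigonadal library gave 1 lower. Adding 5 UMIs to sides of 534972 and 4603069 UMIs raises any low count on the smaller side by construction, so these thymic values say nothing about the members. With no minimum, members called higher were 2 over labelled, 1 in Ad I, 2 in Ad IIa (1 lower), 1 in unlabelled barcodes and 4 in the thymic library. With a minimum of 50 UMIs, 0 were called over labelled, Ad I and Ad IIa nuclei or in the thymic library, and 2 lower in unlabelled barcodes. When called by the interval, 1 was lower over labelled nuclei, 0 lower in the thymic library, 1 higher in the epigonadal library and 0 lower in Immune chromatin. In nuclei of at least 1000 UMIs, 1 was lower over labelled nuclei and 1 higher in the epigonadal library. Thinned to 500 UMIs, 0 were higher and 1 lower over labelled nuclei and 0 higher in Ad IIa, where Eya1 had too few UMIs left for a ratio. In the 9 alternatives that gave one, Eya1 ran from 1.39 to 1.63 over labelled nuclei and from 1.11 to 1.51 in Ad IIa. With 0 held at 3 counts, 1 was lower over labelled nuclei, 0 in Ad I and 0 in the thymic library. With equal weight per nucleus, 4 were higher in the thymic and 1 lower in the epigonadal library. Over gene bodies alone, 1 was higher in thyAD II, and Immune gave 1 higher and 2 lower. Around gene ends, Immune gave 1 higher and 0 lower, and with no fragment minimum 1 higher. With thyAD I alone against unlabelled barcodes, 2 were higher and Hand2 reversed to -0.17. A minimum of 3000 fragments kept all labelled nuclei. Other causes were not tested.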
